A study of Homo sapiens with 2 samples.

Results

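The genes described here are TXNIP, its relatives ARRDC2, ARRDC3 and ARRDC4, the transcription factor genes MLXIP and MLX, and MAX with its repressive partners MXD1, MXD4 and MXI1, 10 genes of the 57485 in the deposited tables. They were taken by name, and all 10 names were found once in each table. The study asked what happens in multiple myeloma (MM) cells when the steroid reductase SRD5A1 is suppressed. Its RNA-seq part holds 2 libraries of ARP1, an established human MM line, transduced with a lentivirus whose SRD5A1 hairpin is switched on by doxycycline (Dox). One library is labelled untreated (without Dox) and the other treated with Dox, so both groups carry the hairpin vector and there is 1 library per condition. The genotype label of the library with Dox names SRD5A2 instead of SRD5A1, and the labels give neither a dose nor a time, nor whether the cells were 1 clone. Dox without the hairpin was not analysed here, so the drug and the knockdown cannot be told apart.

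Cells read their glucose supply partly through MondoA, the protein of MLXIP. MondoA dimerizes with MLX, and when glucose enters and is phosphorylated, the dimer binds paired E-box-like half-sites called carbohydrate response elements. TXNIP and ARRDC4 are its best known target genes. TXNIP binds thioredoxin, the small redox protein encoded by TXN, and it slows glucose uptake by drawing glucose transporters from the surface, so its RNA is often read as a gauge of glucose sensing. The other arrestin-domain proteins are adaptors that bring ubiquitin ligases to membrane proteins. MAX is the common partner of MYC, which activates growth genes, and of the MXD proteins, which repress them.

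The sequence shown first is the TXNIP promoter, since TXNIP had the largest difference of the 10 genes. Promoters were RefSeq windows of GRCh38.p14, from 250 bases before to 50 bases after a transcript start, and the 10 genes had 16 such windows. The letters searched on both strands were the E-box CACGTG, a pair of CACGNG half-sites in the same direction with 5 bases between them, and a looser pair of CANGNG and CNCNNTG with the same gap. The half-site pair was found for 1 of the 10 genes, TXNIP. Since TXNIP prompted the search, this match is a description and not a test. It lies on the minus strand at chr1:145996651-145996667, from 88 to 72 bases before the start. The pair occurs in 20 of 35116 promoter windows, or 0.057%, and for 0.073% of the genes with a window. The 150 bases below lie at chr1:145996610-145996759 on the minus strand, with the half-sites in capitals.
TXNIP: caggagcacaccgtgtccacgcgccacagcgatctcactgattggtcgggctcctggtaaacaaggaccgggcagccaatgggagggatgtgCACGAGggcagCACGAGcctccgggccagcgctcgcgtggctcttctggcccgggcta

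An E-box was found for ARRDC4, MXD4 and MLX, and it occurs in 7.26% of all windows and for 8.77% of the genes with a window. These stretches of 30 bases are shown with the E-box in capitals, at chr15:97960481-97960510 (plus strand), chr4:2262330-2262359 (minus strand) and chr17:42567038-42567067 (plus strand). The MLX window also held the looser pair, as did 1.26% of all windows.
ARRDC4: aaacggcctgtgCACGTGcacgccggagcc
MXD4: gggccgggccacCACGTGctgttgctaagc
MLX: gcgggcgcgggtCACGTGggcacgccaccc
For the other 6 genes none of these letters was in the window, which says nothing of sites elsewhere. A match is a description of the letters and not a measured binding site.

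Before the results, the libraries were checked against their labels. SRD5A1, the targeted gene, had 13.04 FPKM without Dox and 25.88 FPKM with Dox (1375 and 3014 counts), a log2 ratio of 0.98 with a counting interval of 0.89 to 1.08. So the RNA that the hairpin targets was higher where the label says Dox was given, and every direction below rests on the labels. SRD5A2, the gene that the genotype label names, was nearly absent, at 0.03 FPKM without Dox and 0.09 FPKM with Dox (6 and 19 counts). FPKM are fragments scaled to effective transcript length and to the library's total count, so levels can be compared between genes, and a log2 ratio is log2 of the FPKM with Dox plus 0.1 over the FPKM without Dox plus 0.1. A gene that reached 1 FPKM in either library is called tested, which holds for 14859 genes, and a gene past 2-fold has a log2 ratio above 1 or below -1. Replicate error cannot be given from single libraries, so no p-value is printed. The 95% counting intervals are of the Clopper-Pearson kind (exact binomial) and cover counting error only. Each is placed around the log2 ratio with the pseudocount, which pulls it towards 0 where levels are low. In bulk RNA, fewer cells of a type and less RNA per cell cannot be told apart. The libraries held 45918570 and 48728927 counts. All 10 plasma cell markers examined were tested, with a summed level of 2439 and 2339 FPKM. Within that sum the markers went both ways, with log2 ratios of 1.40 for SLAMF7 and 1.06 for TNFRSF17, both past 2-fold, and of -0.54 for SDC1 and -0.37 for MZB1. The summed levels of 5 markers each of B cells, T cells, myeloid cells, fibroblasts and epithelium lay between 0.29 FPKM for fibroblasts and 8.73 FPKM for epithelium, both without Dox. KRT18, an epithelial keratin, had 6 and 1.44 FPKM, and the part of these markers in the results was not tested. CD22, CD3D, CD3G, CD2 and DCN were at 0 counts in both libraries.

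TXNIP (ENSG00000265972.5, chromosome 1 from 145992435 to 145996600 in GENCODE release 29, GRCh38) had 60.64 FPKM without Dox and 272.07 FPKM with Dox, from 6853 and 34485 counts. The log2 ratio was 2.16 (counting interval 2.13 to 2.20), a 4.48-fold higher level in the library labelled with Dox. Of all tested genes, 96.0% had a lower ratio. By level, TXNIP stood above 86.7% of the tested genes without Dox and above 97.7% with Dox, where it was the highest of the 10 genes.

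**Figure D1:**
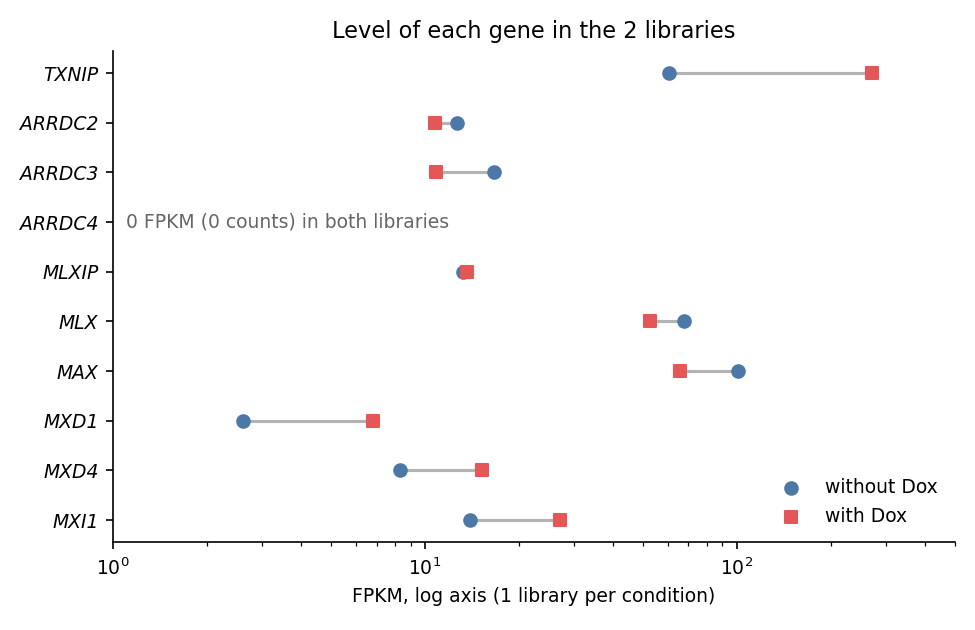
The level of each of the 10 genes in FPKM on a log axis, with a circle for the library without Dox and a square for the library with Dox. TXNIP goes from 60.64 to 272.07 FPKM and becomes the highest, the 3 MXD-type genes are also higher with Dox, and ARRDC4 is at 0 in both libraries.

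The TXNIP RNA also differed in its mix of transcripts. The tables list 4 TXNIP transcripts and a mean length over them of 2704.05 bases without Dox and 2846.81 bases with Dox, 5.28% longer. The longest, ENST00000582401.5, has 2926 bases and the next has 1509, so the mean length bounds its share, if it is weighted by transcript abundance. That share was between 84.3% and 90.8% without Dox and between 94.4% and 96.7% with Dox, and these ranges do not overlap. Its own level then lay between 51.1 and 55.1 FPKM without Dox and between 256.9 and 263.2 FPKM with Dox. By these bounds most of the difference in TXNIP lay in the long transcript, with the shorter ones a smaller share of the RNA.

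ARRDC4 (ENSG00000140450.8, chromosome 15 from 97960698 to 97973838), the arrestin-domain gene most often paired with TXNIP as a MondoA target, was listed with 0 counts in both libraries. A count of 0 allows up to 3 counts, which equal 0.017 and 0.016 FPKM for the length of this gene. No ratio can be given for it, and it is the member that was not tested. The tables list 1 transcript for it, of 4072 bases.

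ARRDC2 and ARRDC3 did not share the direction of TXNIP. ARRDC2 (chromosome 19 from 18001132 to 18014102) had 12.71 FPKM without Dox and 10.77 FPKM with Dox, a log2 ratio of -0.24 (counting interval -0.36 to -0.12). ARRDC3 (chromosome 5 from 91368724 to 91383359), which is known for linking the β2-adrenergic receptor to its ubiquitin ligase, had 16.64 and 10.86 FPKM, a log2 ratio of -0.61 (-0.70 to -0.52). Both were lower with Dox by less than 2-fold. TXNIP had 2.07 times the summed FPKM of ARRDC2 and ARRDC3 without Dox and 12.6 times with Dox. ARRDC3 overlaps the antisense RNA ARRDC3-AS1, which had 1.86 and 4.74 FPKM, and strand is not stated for these libraries, so reads in the overlap cannot be told apart.

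The genes of the sensor itself differed little. MLXIP, which encodes MondoA (chromosome 12 from 122078722 to 122147347), had 13.25 and 13.63 FPKM, a log2 ratio of 0.04 with a counting interval of -0.03 to 0.11 that includes 0. Its sign turned under other scalings, with values from -0.17 to 0.14. MLX, the partner through which MondoA binds DNA (chromosome 17 from 42567068 to 42573239), had 67.65 and 52.62 FPKM, a log2 ratio of -0.36 (-0.42 to -0.31). The ratio of MLX to MLXIP per length was 5.11 without Dox and 3.86 with Dox. MLXIPL, the gene of ChREBP, which plays the role of MondoA in liver, had 0.05 and 0.06 FPKM, from about 4 and 5 counts. MLX shares its end with PSMC3IP on the opposite strand, which had 40.47 and 59.46 FPKM. ENST00000319080.11, the longest MLXIP transcript with 8427 bases, could make up 21.5% to 68.2% without Dox and 29.3% to 71.4% with Dox, ranges that overlap.

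The MXD-type genes were higher in the library with Dox while MAX, their common partner, was lower. MXD1 (chromosome 2 from 69897688 to 69942945), a repressor known to rise as blood cells differentiate, had 2.61 FPKM without Dox and 6.81 FPKM with Dox. Its log2 ratio was 1.35 (1.21 to 1.49), and 89.3% of tested genes had a lower one. MXI1 (chromosome 10 from 110207605 to 110287365), a MYC antagonist known also as a target of hypoxia factors, had 13.94 and 27.04 FPKM, a log2 ratio of 0.95 (0.85 to 1.05). MXD4 (chromosome 4 from 2247432 to 2262294) had 8.32 and 15.20 FPKM, a log2 ratio of 0.86 (0.76 to 0.96). Of these 3, MXD1 was past 2-fold and the interval of MXI1 included 2-fold. MAX (chromosome 14 from 65006174 to 65102695) went the other way, with 101.08 FPKM without Dox and 65.88 FPKM with Dox, a log2 ratio of -0.62 (-0.69 to -0.55). Its mean transcript length was 6.66% greater with Dox, the largest such difference of the 10 genes, at 1041.69 and 1111.08 bases over 19 listed transcripts. MAX overlaps FNTB on the opposite strand (4.55 and 5.04 FPKM), and MXD1 overlaps SNRNP27 on the same strand (50.96 and 40.17 FPKM).

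**Figure D2:**
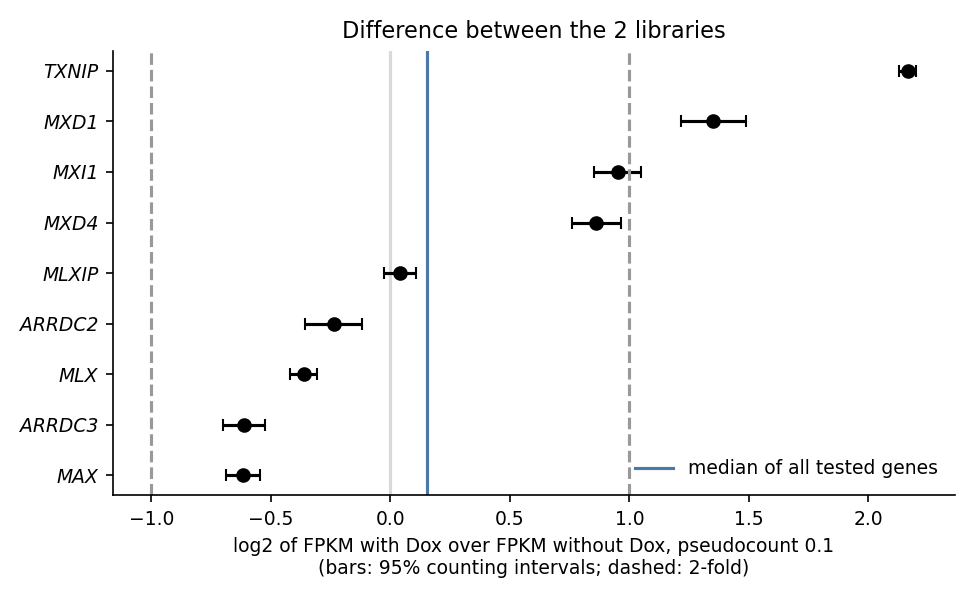
Log2 ratios of the 9 tested genes, with 95% counting intervals as bars, dashed lines at 2-fold and a blue line at the median of all tested genes, 0.15. TXNIP and MXD1 lie beyond the 2-fold line, MXI1 reaches it with its interval, and MAX and ARRDC3 are lowest.

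In all, 2 of the 9 tested members, TXNIP and MXD1, were past 2-fold higher with Dox and 0 were past 2-fold lower. Among all tested genes, 17.0% were past 2-fold higher and 6.41% lower, and among the tested protein-coding genes 11.8% and 6.03%. At 1.5-fold the members numbered 4 higher (TXNIP, MXD1, MXI1 and MXD4) and 2 lower (ARRDC3 and MAX), beside 29.3% and 15.4% of all tested genes. The median of the members was 0.04 and that of all tested genes was 0.15. The members did not share a direction, with 5 above 0 and 4 below, and their counts past 2-fold were near the background.

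The wider MAX and MLX network had 11 tested genes of 13, with a median log2 ratio of 0.49 (0.24 to 0.58 over the 7 alternatives). Of these, 2 were past 2-fold higher, MXD1 and MYCN, and 0 lower, beside 17.0% and 6.41% of all tested genes. MYCN, a MYC relative named here after its value was seen, was low, at 1.29 and 4.51 FPKM. MYC had 456.1 FPKM without Dox and 638.8 FPKM with Dox, a log2 ratio of 0.49 (0.47 to 0.50). MXD3, the fourth MXD-type gene, had 11.87 and 19.70 FPKM, a log2 ratio of 0.73 (0.57 to 0.88) that ranged from 0.22 to 0.82 over the alternatives. MXD1, MXI1, MXD3 and MXD4 were above 0 in all 7 alternative settings. Of the large partners, MNT had 12.99 and 12.61 FPKM and MGA had 10.24 and 13.11 FPKM, log2 ratios of -0.04, with a sign that turned in 2 of 7 alternatives, and 0.35.

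Set against each other per length, the summed MXD-type genes came to about the level of MAX with Dox, while MYC stayed highest. The summed FPKM of the 4 MXD-type genes was 36.74 without Dox and 68.75 with Dox, so it went from 0.36 to 1.04 times the level of MAX. MYC had 4.51 times the FPKM of MAX without Dox and 9.70 times with Dox. MYC remained far above the summed MXD-type genes, at 12.4 times their level without Dox and 9.29 times with Dox. These are ratios of RNA, and the proteins were not measured in these libraries.

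For thioredoxin, the protein TXNIP binds, the order turned. TXN had 233.28 FPKM without Dox and 103.96 FPKM with Dox, a log2 ratio of -1.17 (-1.23 to -1.10). TXN was thus 3.85 times TXNIP per length without Dox, and TXNIP was 2.62 times TXN with Dox. TXNRD1, the reductase that recharges thioredoxin, had 81.07 and 82.48 FPKM, a log2 ratio of 0.02 whose sign turned under other scalings.

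**Figure D3:**
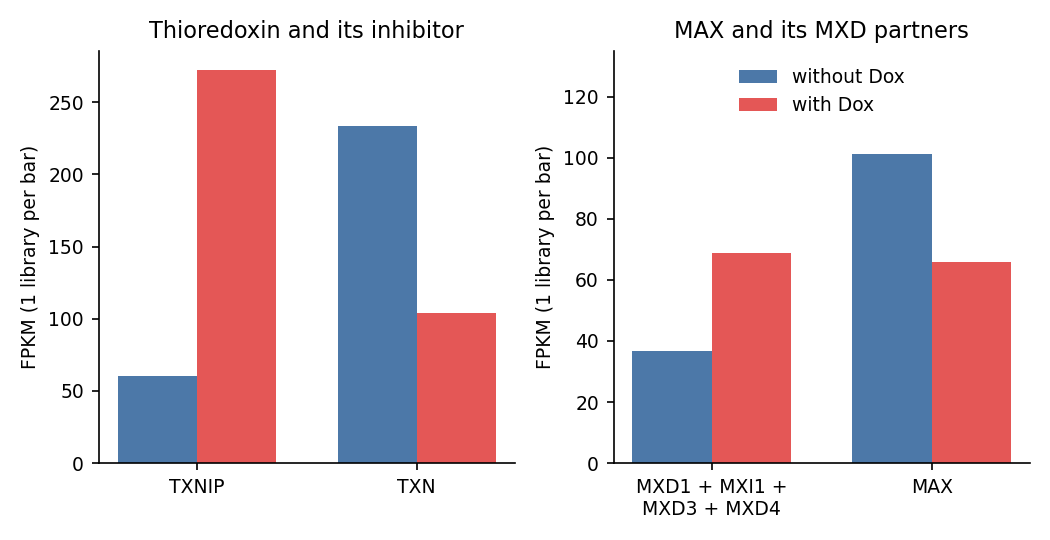
Bars from 0 give FPKM in the library without Dox (blue) and with Dox (red), 1 library per bar, for TXNIP and TXN on the left and for the sum of the 4 MXD-type genes and MAX on the right. TXN is above TXNIP without Dox and below it with Dox, and the MXD-type sum moves from 0.36 to 1.04 times MAX.

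Of the thioredoxin system, 16 of 19 genes were tested, with a median of -0.21 that ranged from -0.52 to -0.11 over the alternatives. Of these, 0 were past 2-fold higher and 2 past 2-fold lower, beside 17.0% and 6.41% of all tested genes. Both lower genes, TXN and PRDX1, encode abundant cytosolic proteins. PRDX1, a peroxidase that thioredoxin reduces, had 374.1 and 81.88 FPKM, a log2 ratio of -2.19 (-2.25 to -2.13). SRXN1, which repairs overoxidized peroxiredoxins, had a log2 ratio of -0.97, and MSRB1, a methionine sulfoxide reductase, one of -0.78.

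Among the 17 genes listed as carbohydrate-response targets, 6 of 10 tested values were below 0. These include ACACB, named here after its value was seen, with more counts with Dox (195 and 377) but a greater mean length (2677 and 6527 bases). Its log2 ratio of -0.47 ranged from -0.66 to 0.85 over the alternatives. KLF10, above 0 at 0.19, also turned in sign, from -0.03 to 0.29. Of the 10 tested genes, 2 were past 2-fold higher and 1 lower, beside 17.0% and 6.41% of all tested genes. Their median log2 ratio was -0.44, and it ranged from -0.64 with TMM factors to -0.03 with counts scaled to the library total alone. FASN, the fatty acid synthase, had 76.75 and 23.50 FPKM, a log2 ratio of -1.70 (-1.74 to -1.67). ACLY, which supplies cytosolic acetyl-CoA, had 151.15 and 78.08 FPKM (-0.95), and KHK, the fructose kinase, had 4.61 and 8.31 FPKM (0.84). The second gene past 2-fold higher was FGF21, named here after its value was seen, with 1 and 65 counts and a log2 ratio of 3.38 (0.85 to 8.70). That interval is placed around a ratio that the pseudocount pulls towards 0, as the level without Dox was 0.03 FPKM. Its reach below 2-fold is therefore not counting error alone. The ratio ranged from 1.13 to 5.19 over the alternatives. FASN and ACLY are also known targets of the sterol regulators, and FGF21 of ATF4, so the list is not specific to MondoA.

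Most tested genes of glucose entry and first phosphorylation were on the low side. ADPGK, at 115.38 and 114.6 FPKM the highest of them, differed little, with a log2 ratio of -0.01 (-0.05 to 0.03). The low ones include G6PC3, the gene of a glucose 6-phosphatase (-0.34), and SLC2A8 (-0.13), whose interval includes 0. Of 21 genes, 8 were tested, with a median of -0.39 (-0.62 to -0.29 over the alternatives). Of these, 0 were past 2-fold higher and 2 past 2-fold lower, beside 17.0% and 6.41% of all tested genes. HK2, the inducible hexokinase, had 10.44 and 4.86 FPKM, a log2 ratio of -1.09 (-1.18 to -0.99), and HK1, the ubiquitous one, had 6.90 and 3.38 FPKM, a log2 ratio of -1.01 (-1.16 to -0.86). Both lay near the 2-fold line, with -1.33 to -0.97 for HK2 and -1.21 to -0.85 for HK1 over the alternatives. With a pseudocount of 1 FPKM neither was past it. SLC2A1, the gene of the main glucose transporter GLUT1, had 14.23 and 7.14 FPKM, a log2 ratio of -0.98 (-1.13 to -0.85), and SLC2A3, the gene of GLUT3, had 6.27 and 4.62 FPKM (-0.43). HK1, HK2 and SLC2A1 were below 0 in all 7 alternative settings. Glucose, glucose 6-phosphate and glucose uptake were not measured in these libraries, so TXNIP RNA stands alone as a readout of sensing and its relation to glucose was not tested.

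Beyond TXNIP, ARRDC2 and ARRDC3, 5 arrestin-fold genes were tested, with a median of 0.06. None of them was past 2-fold in either direction, beside 17.0% higher and 6.41% lower of all tested genes. Over all 8 tested arrestin-fold genes the median was -0.09, and it ranged from -0.32 with DESeq2 size factors to 0.01 with TPM. ARRB2, which ends receptor signaling, had 31.74 and 18.28 FPKM, a log2 ratio of -0.79 (-0.90 to -0.69), and ARRB1 had 6 counts in each library. ARRDC1, known for budding of vesicles at the plasma membrane, had 12.59 and 18.32 FPKM (0.54).

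The NEDD4-like ubiquitin ligases, which bind TXNIP and the ARRDC proteins, had 8 tested genes of 9, with a median of 0.29 (0.08 to 0.38 over the alternatives). None of them was past 2-fold in either direction, beside 17.0% higher and 6.41% lower of all tested genes. NEDD4 had 79.66 and 143.67 FPKM (0.85), a ratio that ranged from 0.34 to 0.95 over the alternatives. ITCH, the ligase known to degrade TXNIP, had 23.08 and 34.16 FPKM (0.56). NEDD4L had 5.69 and 7.83 FPKM (0.45) and WWP1 had 13.18 and 10.34 FPKM (-0.35).

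AMPK is known to phosphorylate TXNIP and so to hasten its breakdown. Of 12 genes of AMPK and the LKB1 complex, 9 were tested, with a median of 0.31 (0.10 to 0.41 over the alternatives). Of these, 1 was past 2-fold higher and 0 lower, beside 17.0% and 6.41% of all tested genes. CAB39L, a scaffold of LKB1, had 1.92 and 5.04 FPKM, a log2 ratio of 1.35 (1.12 to 1.58). PRKAB1, STRADA and PRKAB2 had log2 ratios of 0.56, 0.45 and 0.37.

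**Figure D4:**
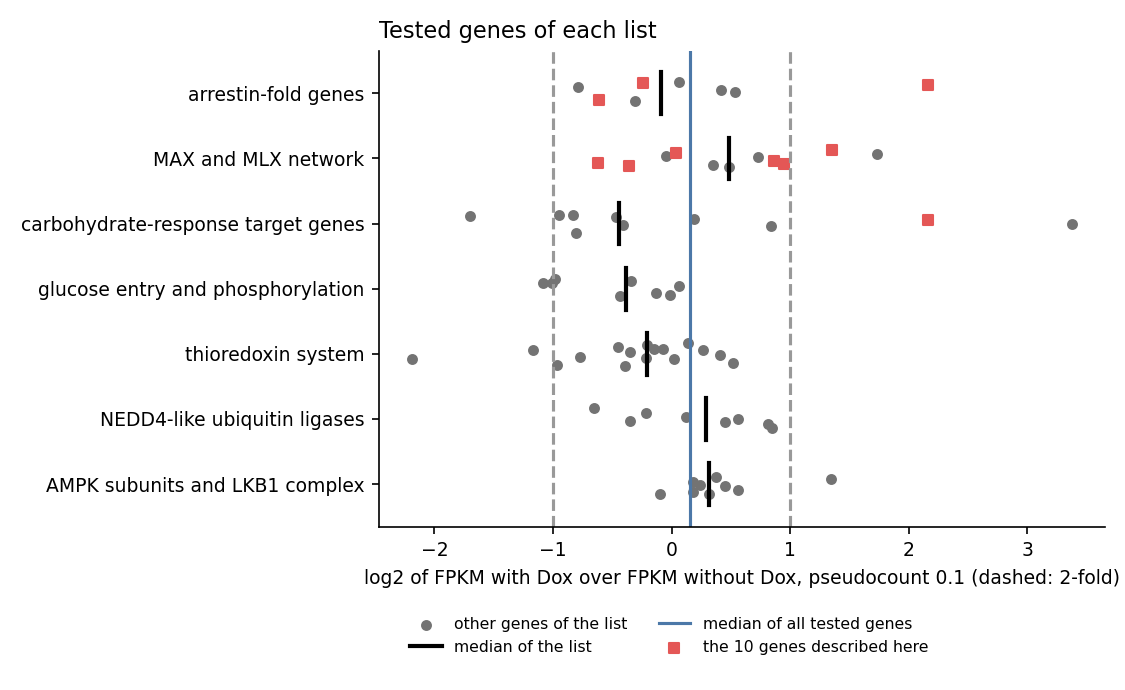
Each point is the log2 ratio of 1 tested gene in 7 lists, with squares for the genes described here, black bars for list medians, dashed lines at 2-fold and a blue line for the median of all tested genes. TXNIP is the 1 arrestin-fold gene past 2-fold, and TXNIP and FGF21 are the carbohydrate-response targets past 2-fold higher. Of the glucose entry genes, 7 of 8 lie below 0, among them ADPGK and SLC2A8, whose counting intervals include 0.

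Scaling moved the value of each of the 9 tested members beyond its counting interval in some settings. The TMM factors of edgeR moved the median of all tested genes by -0.20, and the size factors of DESeq2 by -0.20. Under TMM, 13.1% of tested genes were past 2-fold higher and 10.3% lower. TXNIP lay between 1.96 and 2.26 and MXD1 between 1.11 and 1.45 over the alternatives, so both stayed past 2-fold. MXI1 lay between 0.74 and 1.05 and was past 2-fold with TPM and with counts scaled to the library total alone. MLXIP was the 1 tested member whose sign turned.

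**Figure D5:**
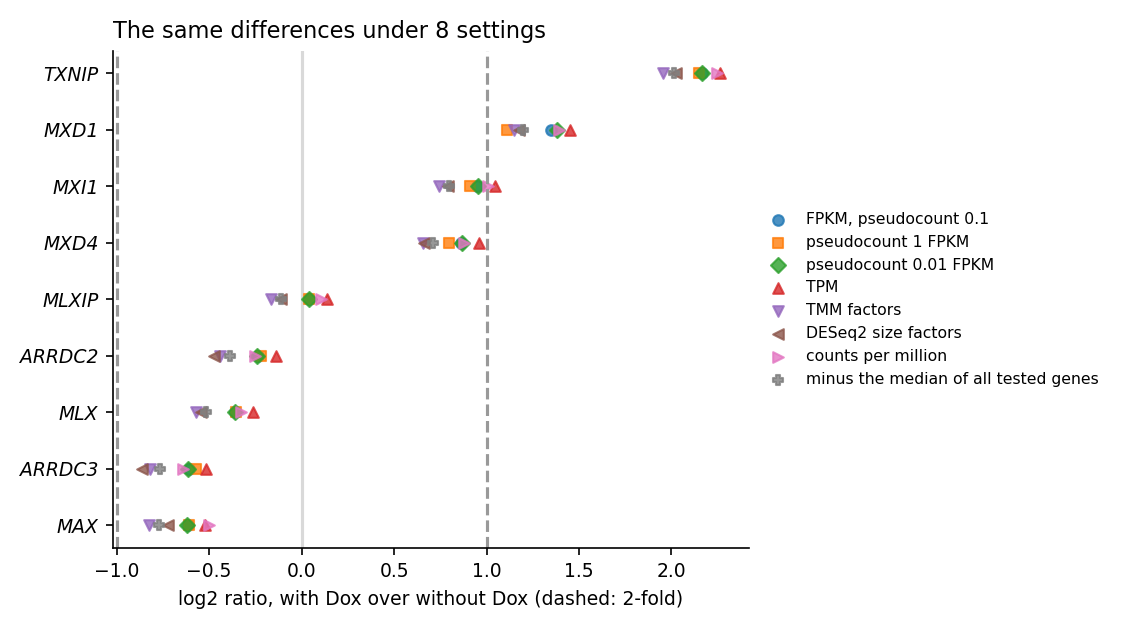
Log2 ratios of the 9 tested genes under 8 settings, with a marker for each setting and dashed lines at 2-fold. The markers of TXNIP and MXD1 all lie beyond 2-fold, those of MXI1 fall on both sides of it, and those of MLXIP fall on both sides of 0.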

How the data were processed

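Each library has 1 table of 57485 genes, and the expected count of a gene, as the authors deposited it, is an estimate of its reads. The authors deposited TPM and FPKM too, both scaled to length and library size, and transcript lengths. The submitters' processing notes name hg19, Bowtie 0.12.2, HISAT2 2.1.0 and StringTie 1.3.4d, while the layout is that of RSEM. The transcript identifiers matched GENCODE release 29 for 202888 of 204675, including all of the 10 genes, and its GRCh38 coordinates are used. Expected counts were whole for 8 of the 10 genes in both libraries.

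Log2 ratios used FPKM with a pseudocount of 0.1, and intervals used rounded counts. No test was made, since edgeR, which the study used, cannot estimate dispersion from 1 library per condition. edgeR 4.0.16 and DESeq2 1.42.0 (R 4.3.3) gave scaling factors over 19934 genes with at least 10 counts. Python 3.11.15, pandas 2.3.3, numpy 2.4.6, scipy 1.17.1 and matplotlib 3.10.9 were used for the rest. Simulated counts were used to check the log2 ratio, the interval before its placement around the pseudocount ratio, and the TMM factors. The ratio and interval were checked for well-counted genes only, and the other steps were not simulated. Alternatives covered the pseudocount, the filter, the scaling, the unit and the fold. Named genes were the 10, SRD5A1, a few chosen by role and up to 4 of each list with the largest absolute ratio among those with at least 5 FPKM. The members and lists were chosen with earlier results of these data known. Protein sequences were not used here.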

Additional observations from a re-analysis of the deposited data

How the results depend on the processing

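No paired analysis was possible because each condition has a single library, which also leaves none to omit. Counting the members past 1.5-fold gave 4 higher and 2 lower. The median of the members, 0.04, became -0.17 with TMM factors, -0.11 with DESeq2 size factors and -0.11 relative to the median of all tested genes, since MLXIP is the middle gene. With TMM factors 1 arrestin-fold gene and 4 carbohydrate-response genes were past 2-fold lower, beside 10.3% of all tested genes. With a pseudocount of 1 FPKM 0 glucose entry genes were past 2-fold lower, beside 4.38% of all tested genes. The list counts were recomputed with TMM factors and with a pseudocount of 1 FPKM, and apart from these the counts of members and list genes stayed within 1.5 times. Over all tested genes, 953 past 2-fold lower became 1527 with TMM factors and 1506 with DESeq2 size factors, and 2521 past 2-fold higher became 1606 with a pseudocount of 1 FPKM. Depth limits ARRDC4, MLXIPL, ARRB1 and FGF21, which rest on few counts or none.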

Other observations

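The TXNIP-type pair of half-sites was in the promoter windows of 20 genes, a set chosen after the values of TXNIP had been seen. Of these, 14 were tested. Besides TXNIP, which prompted the search, GFPT1 and MYL5 were past 2-fold higher in the library labelled with Dox and RCN3 was past 2-fold lower, beside 17.0% and 6.41% of all tested genes, so the count is near the background. GFPT1, which diverts glucose-derived sugar phosphate into hexosamines, had 11.97 FPKM without Dox and 32.36 FPKM with Dox, a log2 ratio of 1.43. MYL5 had 2.11 and 4.33 FPKM, which is at the 2-fold line, and RCN3, a calcium-binding protein gene of the endoplasmic reticulum, had 6.27 and 0.79 FPKM (-2.84). The other 10 had log2 ratios between -0.83 for RAN and 0.73 for PPP2R3C.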
